A study of Drosophila melanogaster with 8 samples.

Results

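Open chromatin of the wing imaginal disc was compared with that of the leg imaginal disc in wandering Drosophila melanogaster larvae of the third instar, 6 h before puparium formation (-6 h APF in the labels). The comparison rests on 2 WT wing and 2 WT leg libraries of the 8 in the series, all labelled female with the genotype +/+; +/+; +/+, and each made from at least 40 dissected tissues. The titles name the leg but no thoracic segment, so fore, middle and hind legs cannot be told apart. All 13008 regions of the series were used, and 12327 of them had an adjusted p. By the authors' deposited table, 251 regions were higher in wing (2.04% of those tested) and 272 in leg (2.21%), 523 in either direction (4.24%), at an adjusted p under 0.05 and a log2 fold change of at least 1.

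Imaginal discs are epithelial sacs in the larva that become the adult appendages at metamorphosis. Wing and leg discs are serially related: both use Hedgehog, Wingless and Decapentaplegic signals to set their axes, and selector genes and Hox genes make their fates different. FAIRE-seq recovers DNA that is poorly crosslinked to nucleosomes, so its signal marks promoters and enhancers that are accessible in the cells of a tissue.

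The tables give a mean normalized count over all 8 libraries and for each pair of groups a log2 fold change and standard error (SE), and no value per library. A mean normalized count for each group, the implied count, was therefore worked out from the deposited mean and the folds between groups. The sources used here do not say if the authors' folds were moderated. Implied counts are therefore approximate, and they stand for groups of 2 libraries without a spread of their own. The labels do not say if the libraries within a group were separate collections, so these could be technical repeats. The deposited mean covers all 8 libraries, so the spread behind the p-values may have been estimated with the other groups as well. The p-values then do not measure the spread between the wing and leg libraries alone. The tissue is a mix of cells, so a difference in the share of a cell type and a difference in accessibility within it cannot be told apart.

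At called regions the median of the lower disc stood near that of the salivary gland. Calls select regions where a disc is low, so the rule in part sets the lower median. Regions higher in wing had a median implied count of 153 in wing and 63.8 in leg, and regions higher in leg had 79.5 in wing and 206 in leg. The salivary gland, whose tables share the disc libraries, had 65.3 and 75.6 at the same regions. Regions not called had medians of 123 in wing, 121 in leg and 104 in salivary gland. The median called fold was 2.31 for wing and 2.45 for leg, and log2 folds of at least 1.5 stood at 41 wing and 90 leg regions of the authors' deposited table.

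**Figure D1:**
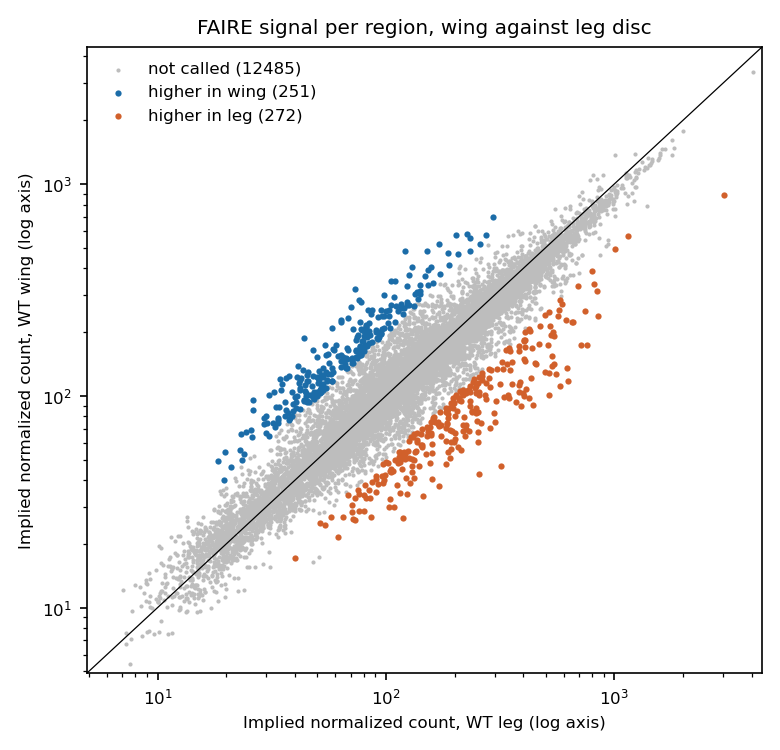
Implied normalized count of each region in WT leg (x axis) and WT wing (y axis), both on log axes, each point 1 region, with the line of equal counts. The 251 regions higher in wing lie above the line and the 272 higher in leg below it, and the farthest points of the leg group reach larger folds than those of the wing group.

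The list of wing selector and dorsoventral genes had 7 of 52 tested regions higher in wing (13.5%) and none higher in leg per the authors' deposited table, with 15 and 4 at an unadjusted p under 0.05. The median log2 fold of the list was 0.14 (authors' deposited table), against -0.04 over all regions tested. These 7 regions lay at vg and Bx alone.

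At vg, the wing selector whose protein binds Scalloped, 6 of 8 regions were higher in wing per the authors' deposited table. Their implied counts ran from 67.3 to 404 in wing and from 24.4 to 158 in leg, with log2 folds of 1.28 to 1.46 (authors' deposited table). The change lay in a block: 10 of 11 regions between 2R 12888320 and 12911412 were higher in wing per the authors' deposited table, the last 4 of them assigned to the neighbour NAT1. The region with the largest fold, at 2R 12909616 to 12910262, had an implied count of 263 in wing and 70.4 in leg (log2 1.9, SE 0.20, adjusted p = 5.44e-18, authors' deposited table). It sits 6055 bp from the nearest end of NAT1 and outside any gene of the annotation used.

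Some strong open regions inside and beside this block did not differ past the thresholds. The region at 2R 12903856 to 12904899, between called ones, had 465 in wing and 392 in leg (log2 0.24, SE 0.14, adjusted p = 0.44, authors' deposited table). The region 224 bp from an end of vg had 309 and 278 (log2 0.15, SE 0.15, authors' deposited table). Called regions of the block lie on both sides of the region at 2R 12903856. Strong regions were among the called ones too, with 404 in wing and 158 in leg at 2R 12888320 to 12889878.

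Bx encodes an LMO protein that limits Apterous activity in the dorsal wing, and 1 of its 6 regions was higher in wing (log2 1.39, SE 0.28, authors' deposited table). The dorsal selector ap had folds of 0.01 to 0.62 over 5 regions and none called in the authors' deposited table. The Notch ligand gene Ser (-0.72 to 0.96 over 13 regions), its modifier fng (-0.50 to 0.92 over 7) and the margin gene ct (-0.56 to 0.38 over 9) had none called either in the authors' deposited table. Of these, 3 regions at Ser and 2 at fng had an adjusted p under 0.05 (authors' deposited table).

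The direction of calls at genes of wing pouch and hinge depended on how regions were assigned. By the nearest gene end, their list had 2 of 50 regions higher in wing (4.0%) and 2 higher in leg (4.0%) per the authors' deposited table. Over all tested regions the shares were 2.04% and 2.21%. The POU genes nub and pdm2, which act in the growth of wing and hinge, each had 1 region higher in wing, by 1.09 (SE 0.23) and 1.09 (SE 0.25) in the authors' deposited table. With 3 regions of Ref2, the gene between them, they form a run of 5 called regions among 9 between 2L 12635572 and 12658008. A region inside nub itself, at 2L 12601549 to 12602318 and assigned to Ref2, went the other way, with 170 in wing and 407 in leg (log2 -1.26, SE 0.18, authors' deposited table). With a containing gene taken first the list had 1 wing and 5 leg regions of 54, and within 10 kb of a gene end 2 and 0 of 37 (authors' deposited table). Doc1, elB, noc and zfh2 of this list had none called, with folds between -0.58 and 0.95 over 6, 7, 6 and 6 regions (authors' deposited table). At noc 2 of the 6 had an adjusted p under 0.05 (authors' deposited table). The homeobox gene dve had 2 neighbouring regions inside the gene higher in leg, the stronger with 64.6 in wing and 221 in leg (log2 -1.78, SE 0.22, authors' deposited table).

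Vein and intervein genes made up the largest group higher in wing. Per the authors' deposited table, 17 of their 114 tested regions were higher in wing (14.9%, at 8 genes) and 3 were higher in leg (2.63%, at 2 genes). The list's median log2 fold was 0.22 (authors' deposited table), and 43 regions against 13 had an unadjusted p under 0.05. Within 10 kb of a gene end 8 of 69 were called for wing and 1 for leg (authors' deposited table).

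At bs, the serum response factor gene that specifies intervein cells, 6 of 9 regions were higher in wing per the authors' deposited table. Implied counts of the 6 were 100 to 367 in wing and 44.5 to 149 in leg, with a narrow range of log2 folds, 1.13 to 1.30 (authors' deposited table). A further, stronger region between bs and slbo, at 2R 24337657 to 24338983, was assigned to slbo, which encodes a C/EBP factor. Its implied counts were 482 in wing and 151 in leg (log2 1.67, SE 0.16, adjusted p = 4.78e-23, authors' deposited table).

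The zinc finger gene salr, which acts in the central wing, had 3 of 9 regions higher in wing per the authors' deposited table, with its largest fold at 101 in wing and 30.7 in leg (log2 1.72, SE 0.29). All 9 salr regions had positive folds, from 0.24 up (authors' deposited table). A run of 7 called regions, of which only the edge is known to come within 30 kb of salr, lay between 2L 11305759 and 11329079. They were assigned to Osi21 and CG14926, with log2 folds of 1.09 to 1.81 (authors' deposited table). The strongest member of the run, at 2L 11307695 to 11308311, had 224 in wing and 63.8 in leg and lies 22297 bp from the nearest gene end. The patterning list gene nearest to this member is ab, at 46923 bp, so salr lies farther away.

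The Iroquois homeobox genes ara, caup and mirr, which act in the notum, in vein formation and in the dorsal wing, held 5 regions higher in wing and 1 higher in leg per the authors' deposited table. At mirr, 3 of 11 regions were higher in wing, and the strongest had 574 in wing and 204 in leg (log2 1.49, SE 0.17, adjusted p = 3.49e-16, authors' deposited table). That region, at 3L 12660368 to 12662186, is 32362 bp from the nearest end of mirr, and the called caup region (log2 1.51, SE 0.29, authors' deposited table) lies 30637 bp from an end of caup in the same gap. Inside ara, regions 440 bp apart went opposite ways: the first had 189 in wing and 93.4 in leg (log2 1.02, SE 0.23), and the second 110 and 285 (log2 -1.37, SE 0.20, authors' deposited table).

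Single regions were higher in wing at kn, bi and vn. The kn region, inside this gene for the factor that patterns the central intervein, had 483 in wing and 121 in leg and the largest fold of the list (log2 1.99, SE 0.19, authors' deposited table). bi, the T-box gene also called optomotor-blind, had 1 of 23 regions at 285 and 138 (log2 1.05, SE 0.20, authors' deposited table). vn, which encodes a neuregulin-like ligand of the EGF receptor, had 1 of 10 at 483 and 234 (log2 1.05, SE 0.17, authors' deposited table). rho, the membrane protease that releases other EGF receptor ligands, had 2 of 6 regions higher in leg, with 98.1 in wing and 346 in leg at the stronger (log2 -1.82, SE 0.20, authors' deposited table). Both rho regions lie inside the neighbouring gene Ptp61F. Egfr itself had folds of -0.35 to 0.18 over 7 regions and salm -0.05 to 0.91 over 5, with none called in the authors' deposited table. At salm 2 of the 5 had an adjusted p under 0.05 (authors' deposited table).

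Notum genes, for the body wall part of the wing disc, had 4 of 41 regions higher in wing (9.76%) and none higher in leg per the authors' deposited table. Dr, the Msh homeobox gene, had 2 of 14, the stronger with 208 in wing and 77.5 in leg (log2 1.42, SE 0.21, authors' deposited table). The Pax gene toe had 1 of 8 (log2 1.42, SE 0.30) and the LIM homeobox gene tup 1 of 6 (log2 1.31, SE 0.30) in the authors' deposited table. A run with 6 of 7 regions called, the edge of which comes within 30 kb of Dr, lay between 3R 29508333 and 29534187. Its called regions were assigned to Trc8 and ND-20L. The strongest, 36830 bp from Dr, had 348 in wing and 110 in leg (log2 1.66, SE 0.20, authors' deposited table).

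**Figure D2:**
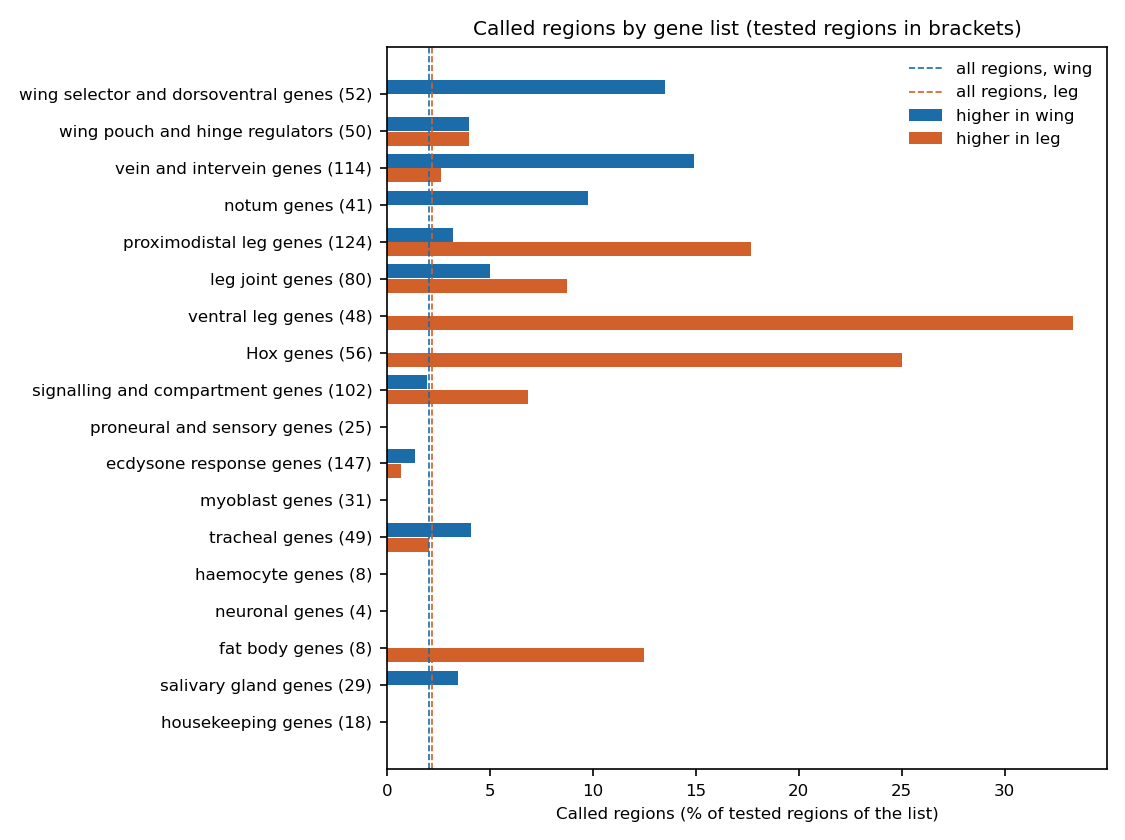
Share of tested regions called higher in wing (blue) and in leg (orange) for each gene list, with the number of tested regions in brackets and dashed lines at the shares over all regions (2.04% and 2.21%). Ventral leg genes (33.3%) and Hox genes (25.0%) have the longest bars for leg, and vein and intervein genes (14.9%) and wing selector genes (13.5%) for wing.

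Ventral leg genes had the highest share of called regions of the 18 lists. In the authors' deposited table, 16 of 48 regions were higher in leg (33.3%, at 5 of 6 genes) and none higher in wing, and 37 against 0 had an unadjusted p under 0.05. Within 10 kb of a gene end the count was 10 of 27 (authors' deposited table). The list's median log2 fold was -0.78 (authors' deposited table).

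The paired forkhead genes fd96Ca and fd96Cb were the clearest case. All 5 regions between 3R 25081333 and 25092184 were higher in leg per the authors' deposited table. The strongest, 4074 bp from an end of fd96Cb, had 117 in wing and 625 in leg (log2 -2.41, SE 0.18, adjusted p = 4.86e-37, authors' deposited table). The region 198 bp from an end of fd96Ca was also higher in leg, at 311 in wing and 839 in leg (log2 -1.43, SE 0.17, authors' deposited table), one of the few called regions so close to a gene end.

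The zinc finger genes disco-r and disco, which are needed for ventral appendages, had 5 of 15 and 1 of 3 regions higher in leg per the authors' deposited table. The strongest disco-r region had 229 in wing and 612 in leg (log2 -1.42, SE 0.15), and the disco region 149 and 401 (log2 -1.43, SE 0.19, authors' deposited table). All 5 disco-r regions lie between X 16132439 and 16152915, a stretch with 10 regions in all.

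H15 and mid are adjacent T-box genes that specify ventral fate in the leg, and their regions differed in number called. H15 had 5 of 14 regions higher in leg per the authors' deposited table, with 141 in wing and 454 in leg at the strongest (log2 -1.69, SE 0.20). mid had 0 of 9 called, with folds of -0.81 to 0.40 in the authors' deposited table, and 2 of the 9 had an adjusted p under 0.05. The difference between the 2 genes was not tested. On the far side of mid, 4 of 5 regions between 2L 5500164 and 5517347, assigned to CG14020, were higher in leg per the authors' deposited table. The strongest of them had 127 in wing and 555 in leg (log2 -2.12, SE 0.18, adjusted p = 1.53e-29, authors' deposited table).

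Proximodistal leg genes had 22 of 124 regions higher in leg (17.7%, at 7 genes) and 4 higher in wing (3.23%, at 3 genes) per the authors' deposited table. The list's median log2 fold was -0.20 (authors' deposited table). Within 10 kb of a gene end the counts were 14 and 2 of 74 (authors' deposited table).

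The Sp-family zinc finger genes btd and Sp1, which act at the top of leg development and in leg growth, stood together on the X. Sp1 had 6 of 9 regions and btd 3 of 6 higher in leg per the authors' deposited table, and these are 9 of the 12 regions between X 9706854 and 9748333. Implied counts of the 6 Sp1 regions were 29.7 to 255 in wing and 103 to 574 in leg, and of the 3 btd regions 34.7 to 50.7 in wing and 116 to 192 in leg. The strongest region, at X 9717978 to 9718928, had 103 in wing and 397 in leg (log2 -1.94, SE 0.19, adjusted p = 1.38e-21, authors' deposited table) and a peak in the leg list alone. The region 275 bp from an end of Sp1 had the highest counts, 255 and 574, and the smallest called fold of the block (log2 -1.17, SE 0.18, authors' deposited table).

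Lim1, a LIM homeobox gene of the distal leg, had 6 of 11 regions higher in leg per the authors' deposited table, with 68.6 in wing and 217 in leg at the largest fold (log2 -1.66, SE 0.25). All 11 folds at Lim1 were negative (authors' deposited table). Its partner al, a homeobox gene of the leg tip, had 1 of 7 higher in leg (log2 -1.22, SE 0.29, authors' deposited table). bab2, a BTB gene of the tarsus, had 3 of 10 and its copy bab1 1 of 12 higher in leg per the authors' deposited table. The bab2 region at 3L 1129812 to 1130520 had 99.8 in wing and 403 in leg (log2 -2.01, SE 0.18, adjusted p = 2.38e-25, authors' deposited table). ss, which specifies antennal and distal leg fate, had 2 of 6 higher in leg, by 1.29 in each of them (authors' deposited table).

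Dll, the homeobox gene that specifies distal fate in the leg and also acts at the wing margin, went against the direction of its list when regions were assigned by the nearest gene end. In the authors' deposited table, 2 of its 9 regions were higher in wing and none higher in leg. The stronger, at 2R 24836894 to 24838184 and 1872 bp from an end of Dll, had 520 in wing and 171 in leg (log2 1.60, SE 0.16, adjusted p = 5.72e-21, authors' deposited table). The other 7 Dll regions had folds below 0, down to -0.87 (authors' deposited table).

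Around Dll, regions of both directions were interleaved. Of 22 regions between 2R 24793119 and 24869521, 3 were higher in wing and 8 higher in leg per the authors' deposited table, and 19 of the 22 folds were negative. Those higher in leg were assigned to CG3611, CG42851, CG3650 and Atf-2. At 2R 24806334 to 24807840 the implied counts were 253 in wing and 744 in leg (log2 -1.56, SE 0.19, authors' deposited table). At 2R 24868655 to 24869521 they were 90.9 and 440 (log2 -2.27, SE 0.19, authors' deposited table). Another region higher in wing, at 2R 24855706 to 24856509, stood 1811 bp from its nearest neighbour higher in leg, with 185 in wing and 92.1 in leg (log2 1.01, SE 0.22, authors' deposited table).

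The proximal genes hth and tsh each had 1 region higher in wing per the authors' deposited table. hth, the TALE homeobox gene of proximal appendages and body wall, had 1 of 31, at 104 in wing and 32.3 in leg (log2 1.69, SE 0.28), 60648 bp inside the gene (authors' deposited table). Of the other 30 hth regions, with folds of -0.89 to 0.83, 10 had an adjusted p under 0.05 (authors' deposited table). tsh, a zinc finger gene of the trunk and hinge, had 1 of 9, at 143 and 71.2 (log2 1.00, SE 0.24, authors' deposited table), just inside the fold threshold. Of the leg markers dac and C15, none of 4 and none of 2 regions were called in the authors' deposited table, with folds of -0.40 to 0.15 and -0.22 to 0.03.

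**Figure D3:**
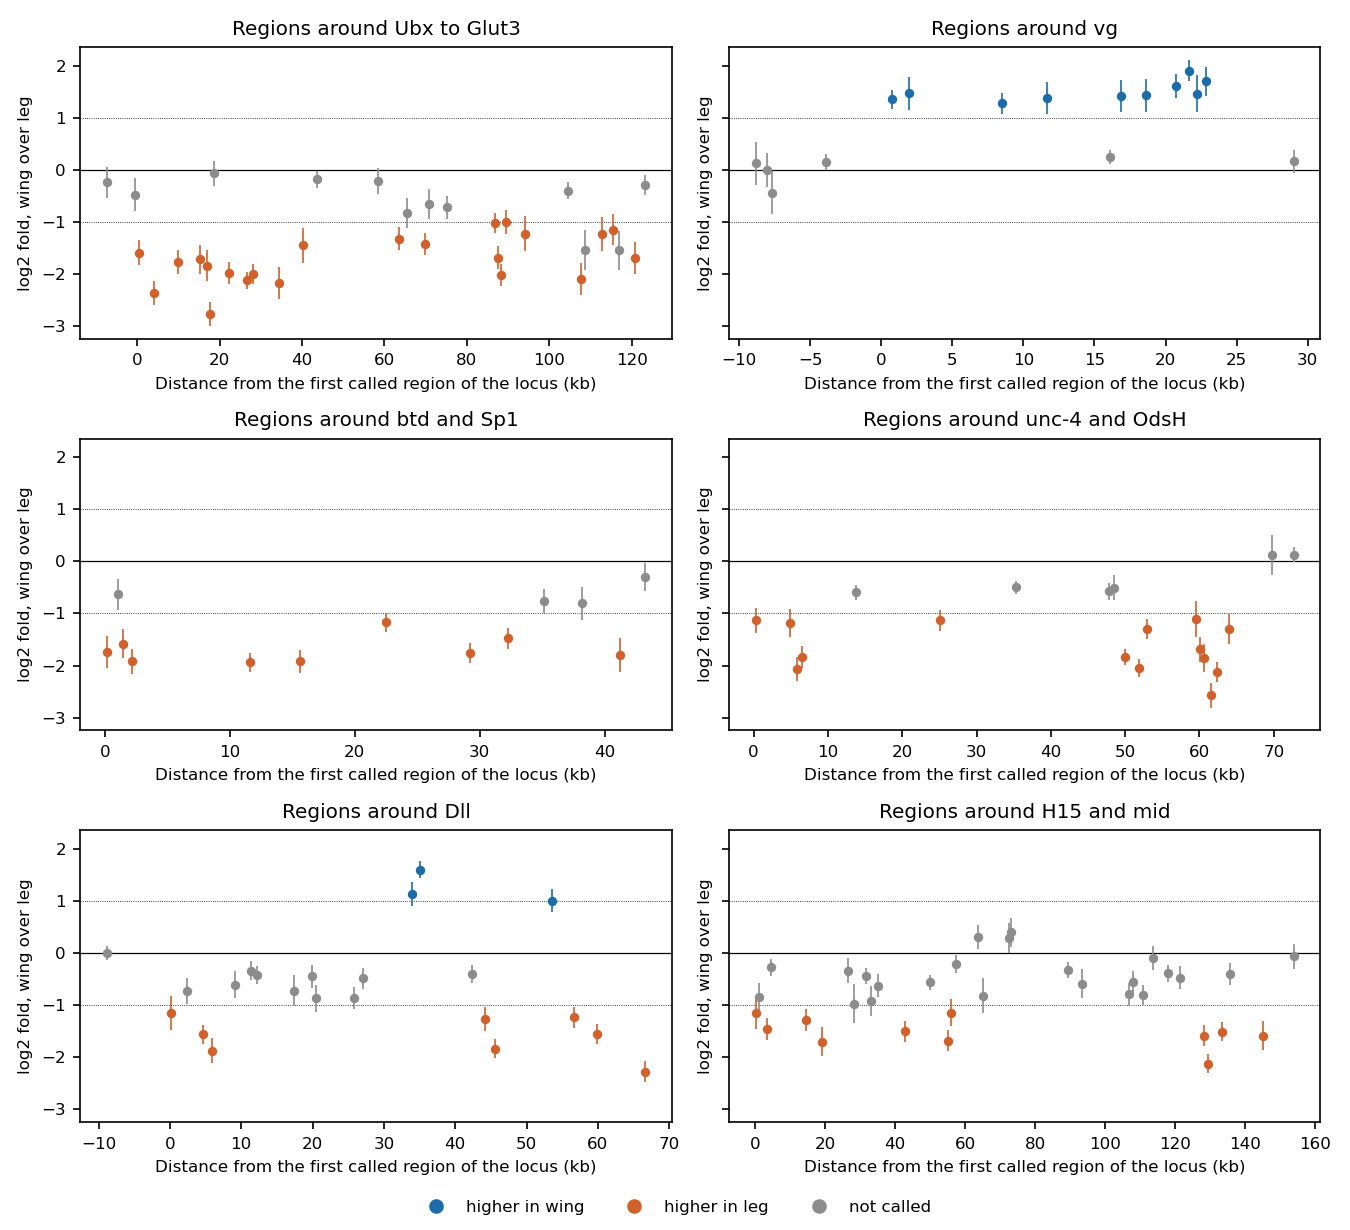
Log2 fold of wing over leg (y axis, bars 1 SE) for each region at 6 loci against the distance in kb from the first called region of the locus (x axis), with dotted lines at folds of 1 and -1. Around vg the called regions lie above 1, from Ubx to Glut3 and around btd and Sp1 they lie below -1, and around Dll called regions of both directions alternate.

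Leg joint genes had 7 of 80 regions higher in leg (8.75%, at 4 genes) and 4 higher in wing (5.0%, at 2 genes) per the authors' deposited table. TfAP-2, which is needed for leg joints, had 4 of 8 higher in leg, and the strongest had 135 in wing and 621 in leg (log2 -2.21, SE 0.21, adjusted p = 2.28e-23, authors' deposited table). With 1 region of EMC10, these are 5 of the 6 regions between 3L 21580580 and 21596821. dysf, a bHLH-PAS gene also active in tarsal joints, had the opposite direction: 3 of 10 regions were higher in wing, in a row between 3R 26074012 and 26076032 (authors' deposited table). The strongest of them had 202 in wing and 84.1 in leg (log2 1.26, SE 0.22, authors' deposited table).

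The zinc finger genes odd and drm, which act downstream of Notch at leg joints, had 1 region each higher in leg, by 1.15 (SE 0.23) and 1.29 (SE 0.21) in the authors' deposited table. drm also had 1 higher in wing, 2.32 kb away, with 190 in wing and 74.5 in leg (log2 1.35, SE 0.21, authors' deposited table). The Golgi kinase gene fj had 1 of 8 higher in leg (log2 -1.11, SE 0.22, authors' deposited table). At bowl (9 regions), sob (6), Poxn (5) and ds (17) no region passed both thresholds in the authors' deposited table. At ds, the cadherin gene that works with fj, 9 of the 17 had an adjusted p under 0.05 with folds of -0.86 to 0.93 (authors' deposited table). At Poxn 2 of 5 had one, with a largest fold of 0.99 and a lowest adjusted p of 7.53e-05 (authors' deposited table). At sob 1 of 6 had an adjusted p under 0.05 (authors' deposited table).

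Hox genes had 14 of 56 regions higher in leg (25.0%) and none higher in wing per the authors' deposited table, with 24 against 1 at an unadjusted p under 0.05. Within 10 kb of a gene end 3 of 34 regions, at 1 gene, were higher in leg per the authors' deposited table. Ubx, which gives the third thoracic segment its identity, held 13 of the 14, and Antp 1. Wing discs come from the second thoracic segment, and leg discs can come from any of the 3, so segment and appendage cannot be told apart here.

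Every called Ubx region lies inside the gene. Over these 13 regions, implied counts were 26.1 to 173 in wing and 71.6 to 756 in leg, and 10 of the 13 had a peak in the leg list and none in the wing list. The largest count was at 3R 16685371 to 16686749, with 173 in wing and 756 in leg (log2 -2.13, SE 0.16, adjusted p = 2.48e-37, authors' deposited table). The largest fold of the whole comparison was at 3R 16676698 to 16677383, with 46.7 in wing and 319 in leg (log2 -2.77, SE 0.22, authors' deposited table).

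The Ubx regions fell into separate runs. From 3R 16659467 to 16699728, 11 of 12 regions were higher in leg, and the single exception, at 139 in wing and 146 in leg, had a log2 fold of -0.07 (SE 0.24, authors' deposited table). The regions at 3R 16702693 and 16717576 followed with folds of -0.19 and -0.23 (authors' deposited table). A second run, from 3R 16722666 to 16780437, had 11 of 17 regions higher in leg and went past the end of Ubx to CG31275 and Glut3 (authors' deposited table). The region 89 bp from an end of Ubx had 151 in wing and 248 in leg (log2 -0.72, SE 0.22, adjusted p = 0.018, authors' deposited table), under the fold threshold. All 34 regions of this 130.8 kb stretch had negative folds (authors' deposited table). With these runs left out, as was decided only after seeing the data, the leg count was 250.

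The other Hox genes differed little. Antp, which acts in the second thoracic segment, had 1 region of 9 above the thresholds for leg, at 53.4 in wing and 122 in leg (log2 -1.19, SE 0.27, authors' deposited table). Scr (-0.66 to -0.01 over 7 regions) and Abd-B (-0.62 to 0.12 over 9) had none called, nor did abd-A, next to the Ubx runs, with -0.35 to -0.08 over 3 regions (authors' deposited table). At Scr 1 of the 7 had an adjusted p under 0.05 (authors' deposited table).

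Signalling and compartment genes had 7 of 102 regions higher in leg (6.86%) and 2 higher in wing (1.96%) per the authors' deposited table. The Wnt ligand genes wg, Wnt6 and Wnt10, which neighbour each other, held 6 of the 9. wg had 1 region higher in wing, with 256 in wing and 87.2 in leg (log2 1.55, SE 0.22), and 2 higher in leg, the stronger in counts with 165 and 337 (log2 -1.03, SE 0.21, authors' deposited table). The opposite wg regions lie 3.93 kb apart. Wnt6 had 2 of 7 higher in leg, with 175 in wing and 467 in leg at the stronger (log2 -1.41, SE 0.17, adjusted p = 2.16e-14), and Wnt10 had 1 of 5 higher in wing, at 76.9 and 37.6 (log2 1.03, SE 0.31, authors' deposited table).

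Among other genes of this list, nkd, a Wingless target and inhibitor, had 2 of 12 regions higher in leg, with 48.4 in wing and 156 in leg at the larger fold (log2 -1.69, SE 0.26, authors' deposited table). The posterior selector en had 1 of 11 higher in leg, at 46.6 and 139 (log2 -1.58, SE 0.27, authors' deposited table). No region was called at dpp (-0.75 to 0.78 over 9), hh (-0.46 to -0.07 over 5), ptc (-0.56 to 0.20 over 11), brk (-0.30 to 0.09 over 8) or inv (-0.38 to 0.46 over 9) in the authors' deposited table. Wnt4 had none of 3 called (-0.46 to -0.08), nor did Dad (-0.74 to 0.11 over 9) and fz3 (-0.95 to 0.14 over 5) in the authors' deposited table. Of these, 3 regions at dpp, 3 at fz3 and 1 at ptc had an adjusted p under 0.05 (authors' deposited table).

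Homeobox genes outside the lists held the densest run of leg regions. OdsH, a homeobox gene next to its relative unc-4, had 7 of 10 regions higher in leg, and unc-4 had 3 of 4 in the authors' deposited table. All 9 regions between X 17803953 and 17818860 were higher in leg, the last 2 assigned to CG12986 (authors' deposited table). The OdsH region at X 17805824 to 17807044 had 174 in wing and 718 in leg (log2 -2.05, SE 0.17, adjusted p = 7.81e-31), and the largest fold was at X 17815961 to 17816492, with 43.0 and 255 (log2 -2.57, SE 0.24, authors' deposited table). The best supported unc-4 region had 83.3 in wing and 297 in leg (log2 -1.84, SE 0.20, adjusted p = 1.00e-16, authors' deposited table). The region 211 bp from an end of unc-4 had 401 and 606 (log2 -0.60, SE 0.14, authors' deposited table), under the fold threshold. lbe, a ladybird homeobox gene, had 2 of 8 regions higher in leg and shares a run of 4 with Fancm (authors' deposited table).

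Further single regions of large fold lay at genes outside the lists. Where the count reached the median, the largest fold for wing was at 3L 6936408 to 6937397, 2078 bp from CG14820, with 320 in wing and 73.3 in leg (log2 2.12, SE 0.21, adjusted p = 5.92e-21, authors' deposited table). Next to ppk, a sodium channel subunit gene of sensory neurons, 1 region had 284 in wing and 76.2 in leg (log2 1.9, SE 0.19, authors' deposited table). Others lay at boi, which encodes a Hedgehog co-receptor (log2 1.78, SE 0.22), at drl, which encodes a Ryk-type Wnt receptor (log2 1.72, SE 0.18), and at CG5321, Ttc30 and Gp150 (log2 1.83 to 1.85) in the authors' deposited table.

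For leg, the region assigned to CG9360 lies inside m (miniature), a gene for a ZP-domain protein of the wing epidermis, and had 111 in wing and 578 in leg (log2 -2.38, SE 0.19, adjusted p = 8.06e-32, authors' deposited table). The region 943 bp from Pburs, a bursicon subunit gene, had 97.2 and 423 (log2 -2.12, SE 0.20, authors' deposited table). Runs of wing regions far from the listed genes lay at CG8765 (5 of the 5 regions in the span of the run, log2 1.24 to 1.81) and snky (4 of the 4, 1.12 to 2.1) in the authors' deposited table. At CG4766 and mab-21 the run held 4 of 9 regions (1.14 to 1.41) in the authors' deposited table, and near hth the run at CG6465 held 4 of 7 (1.00 to 1.36). The remaining run of leg regions, at ppk24, pHCl-2 and CG34347, had 4 of 6 with sizes of 1.14 to 1.27 (authors' deposited table).

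Called regions of 1 direction were grouped by position. With regions of 1 direction joined within 20 kb, the 251 wing regions fell into 167 groups and the 272 leg regions into 152. Groups of 4 or more held 53 wing regions in 9 clusters (21.1%) and 91 leg regions in 15 clusters (33.5%), while 49.4% of wing and 36.8% of leg regions stood alone. Inside the spans of these 24 clusters were 192 regions, of which 144 were called in the direction of their cluster. How close together as many other regions would lie, and the difference between the discs in clustering, were not tested.

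At 28 of the 322 genes with a call, regions of both directions were called in the authors' deposited table. How often calls of opposite direction would share a nearest gene, or lie as close, was not tested. At 12 of the 28 genes the opposite regions lay under 5 kb apart. The closest were 112 bp apart at CG42747 and 135 bp at mab-21, followed by ara with 440 bp, yip3 with 1.42 kb, CG3650 with 1.81 kb and olf413 with 1.97 kb. At mab-21 the adjacent regions had 332 in wing and 140 in leg (log2 1.24, SE 0.17), then 106 and 232 (log2 -1.13, SE 0.21, authors' deposited table). The Wnt receptor gene fz had 2 regions of each direction inside the gene, and the Toll-family receptor gene Tollo 1 of each outside it (authors' deposited table). drl, trh, Eip93F, wg and drm are in the group as well, with CG30114, CG42813, CG46443, CG6465, CG9294, CG9592, Cpr35B, Gld2, Ref2, Vha100-3, hng3, nht, plh, slow and tnc.

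Called regions lay away from gene ends. Within 500 bp of the end of a gene lay 12 of 251 wing regions (4.78%, 95% Wilson interval 2.76% to 8.17%) and 16 of 272 leg regions (5.88%, 3.65% to 9.34%), against 37.3% of the 12485 regions not called. The gene table gives no strand, so both ends of a gene count, and exons, introns and UTRs were not assigned. The median distance to a gene end was 6.06 kb for wing, 6.27 kb for leg and 1.24 kb for regions not called. Inside the span of a gene lay 40.2% of wing and 42.6% of leg regions, against 71.1% of those not called.

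By distance, the share of all regions called rose from 0.256% (wing) and 0.342% (leg) within 0.5 kb to 3.97% and 4.64% at 10 to 20 kb. At 20 to 50 kb the shares were 4.61% for wing and 2.23% for leg, and beyond 50 kb, with 130 regions, they were 0.769% (1 region) and 0%. Called regions had median counts of 102 (wing) and 109 (leg), against 121 for those not called, and median widths of 560 and 602 bp, against 506 bp. The part of these counts and widths in the shares was not tested.

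**Figure D4:**
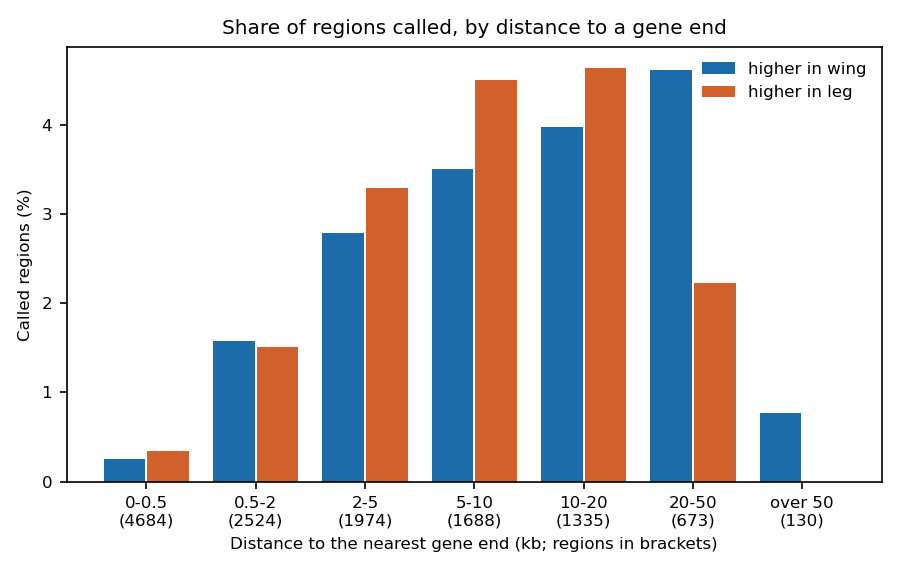
Share of regions called higher in wing (blue) and in leg (orange), in percent, by distance of the region centre to the nearest gene end in kb, with the number of regions of each class in brackets. Both shares are under 0.4% within 0.5 kb and above 3.4% from 5 to 20 kb.

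The same held at the patterning genes. Over the 10 lists of disc patterning genes (107 genes), 2 of 96 regions within 500 bp of a gene end were called (2.08%), both higher in leg, and 109 of 610 farther regions (17.9%) in the authors' deposited table. Over all regions the shares were 0.598% of 4684 and 5.95% of 8324. A patterning gene was the nearest gene for 15.9% of wing and 26.1% of leg regions, against 4.77% of those not called. A patterning gene lay within 50 kb of 41.4%, 50.7% and 12.8%. These lists were chosen with results of this comparison known, so the shares describe them and are no independent evidence.

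The chromosomes held unequal shares of the calls. On X, 30 of 2406 regions were higher in wing (1.25%) and 60 higher in leg (2.49%) per the authors' deposited table. The 5 leg clusters of X, at Lim1, btd and Sp1, disco-r, raskol and unc-4, and OdsH, held 34 of these 60. On 2L, 2R and 3L more regions were higher in wing than in leg (53 and 45, 55 and 49, 61 and 51), and on 3R fewer (52 and 67), where the Ubx to Glut3 runs hold 22 (authors' deposited table). None of 39 regions on chromosome 4 and none of 14 on Y was called. All libraries are labelled female, and the merged peak lists hold 34 (wing) and 39 (leg) peaks on Y. The sex of the tissues and the part of X dose in these counts were not tested.

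The merged peak lists, made by the authors on pooled libraries with 1 list a group, followed the calls. Peaks of both lists overlapped 124 of the 251 wing regions, and 126 had a peak in the wing list alone, 0 in the leg list alone and 1 in neither. Of the 272 leg regions, 163 had both, 0 the wing list alone, 107 the leg list alone and 2 neither. Of the regions not called, 80.7% had both. The overlap column of the authors' deposited table, whose rule is not given in the sources used here, gave fewer regions to both discs. It marked both discs at 21 wing regions (8.37%) and 41 leg regions (15.1%), and the higher disc alone at 208 and 212. Libraries behind the lists are those behind the table, so the lists are no separate test of the calls.

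Fold enrichments of the peaks describe the same regions within each list. They are the authors' own. At the 124 wing regions the median enrichment was 6.28 in the wing list (percentile 89.9 of that list) and 3.14 in the leg list (percentile 55.8 of that list). At the 163 leg regions the medians were 3.39 (percentile 66.2) in the wing list and 7.78 (percentile 91.1) in the leg list. The regions were called from the same libraries, and the lists differ in length, so these values are a description and no comparison of the discs.

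**Figure D5:**
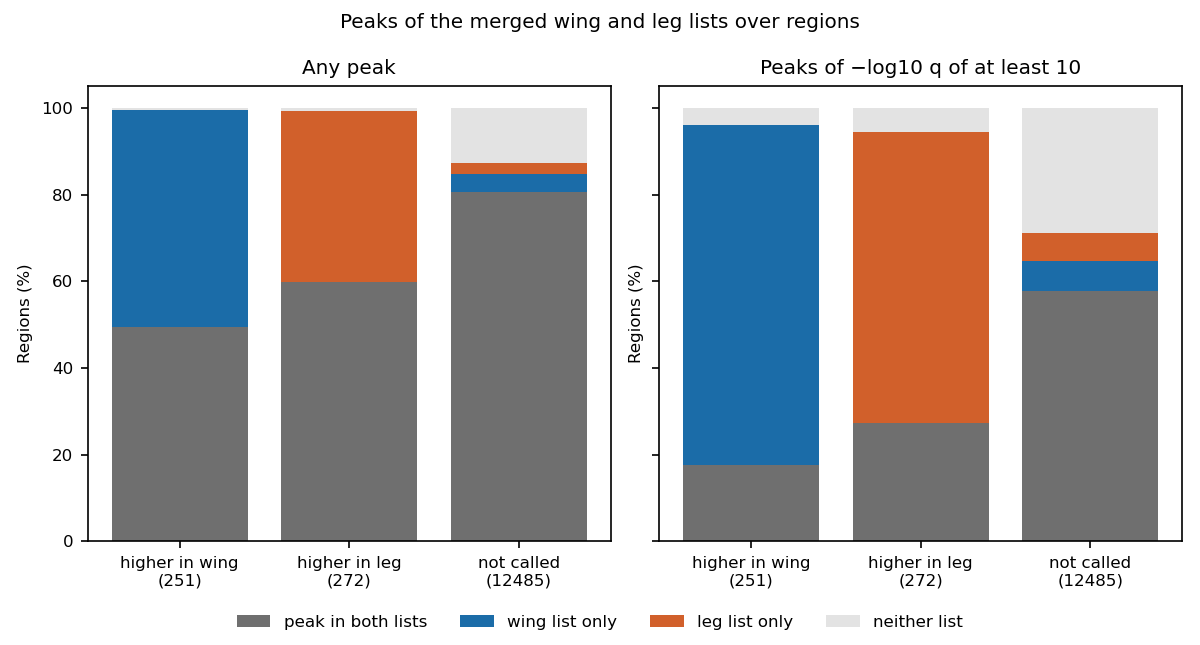
Share of regions, in percent, overlapped by peaks of both merged lists, of 1 list alone or of neither, for regions higher in wing, higher in leg and not called, with any peak (left) and with peaks of a −log10 q of at least 10 (right). With any peak 49.4% of wing and 59.9% of leg regions have a peak in both lists, and with the stricter peaks 17.5% and 27.2%.

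The lists also held peaks of 1 disc that the table did not test. Of 29283 wing peaks, 7586 were not overlapped by a leg peak, and 13.5% of these lay in one of the regions. Of 26754 leg peaks, 4879 were not overlapped by a wing peak, and 14.0% of them lay in a region. Of all peaks, 44.2% of the wing list and 47.6% of the leg list lay in a region. The peaks not overlapped by the other list had median enrichments of 2.42 (wing) and 2.53 (leg), against 2.82 and 2.97 over the whole lists. Of the wing peaks with a −log10 q of at least 10, 366 had no leg peak, 226 of them in regions and 121 in regions called higher in wing. The leg list had 326 such peaks, 175 in regions and 98 in regions called higher in leg. None of either set lay in a region called the other way.

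Marker genes of each tissue were set beside the labels. Of the wing markers, vg, nub and pdm2 had regions higher in wing, and ap, Doc3 and zfh2 had none called in the authors' deposited table. A region inside nub, assigned to Ref2, was higher in leg (log2 -1.26, authors' deposited table). Of the leg markers, Sp1, btd, bab2, al and Lim1 had regions higher in leg, dac and C15 had none called, and Dll had 2 higher in wing (authors' deposited table). FAIRE signal is accessibility and not expression, so a marker with no called region does not go against a label. These genes come from lists chosen with earlier results of these data known. The counts therefore describe the markers and are no test of the labels.

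Lists for other cells and general functions are given beside the shares over all tested regions, 2.04% for wing and 2.21% for leg. At such shares a small list can hold no called region, and no list was tested against them. None of 31 myoblast regions was called (DESeq2, by the labels of the authors' deposited table), with 4 higher in wing and 5 in leg at an unadjusted p under 0.05. With a containing gene taken first, 2 of 53 were higher in wing, both inside kirre, an adhesion gene of myoblast fusion, by log2 folds of 1.16 (SE 0.37) and 1.09 (SE 0.26) in the authors' deposited table. No call was made at 25 proneural regions (1 and 1), 8 haemocyte regions (0 and 0), 4 neuronal regions (0 and 0) and 18 housekeeping regions (0 and 1) in the authors' deposited table. Ecdysone response genes had 3 of 147 called (1.36% higher in wing, 0.68% higher in leg). These lay at br, the early gene for a BTB zinc finger factor, higher in wing (log2 1.07, SE 0.25), and at Eip93F in each direction (authors' deposited table). EcR, Eip74EF, Eip75B and ftz-f1 had none called over 8, 28, 20 and 11 regions in the authors' deposited table. At Eip74EF 2 of the 28 had an adjusted p under 0.05, and its largest log2 fold was 0.96 (authors' deposited table).

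Of other list genes with 5 or more regions, none was called at eyg and ush (notum), Mef2 and rst (myoblast), hry (proneural), CrebA and Sgs4 (gland), Act5C (housekeeping), and Blimp-1, Eip78C, Hr39, Hr4 and ImpE1 (ecdysone), with folds between -0.98 and 0.90 in the authors' deposited table. An adjusted p under 0.05 stood at 2 rst regions. It also stood at 1 region each of eyg, ush, hry, CrebA, Eip78C, Hr39, Hr4 and ImpE1 (authors' deposited table).

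The tracheal list had 3 of 49 called (4.08% higher in wing, 2.04% higher in leg), all at trh, the tracheal master gene. Of the 3, 2 were higher in wing, the stronger with 269 in wing and 106 in leg (log2 1.35, SE 0.21), and 1 was higher in leg (log2 -1.32, SE 0.27, authors' deposited table). At the tracheal genes kni, knrl and vvl none of 7, 9 and 18 regions was called in the authors' deposited table. Of these, 3 regions at knrl and 3 at vvl had an adjusted p under 0.05 (authors' deposited table). The fat body list had 1 of 8 regions called, higher in leg (12.5%). It was 1 of the 5 regions of Adh, at 168 in wing and 437 in leg (log2 -1.37, SE 0.18), inside the overlapping gene osp (authors' deposited table). Of the salivary gland genes, toe alone had a call (1 of 29 regions of the list, 3.45%, higher in wing), and it also stands among the notum genes.

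Some calls higher in leg had a large SE. At 4 of the 272, the SE was over 1.5 times that of regions of like count: 2 over w (white), 1 at His2Av and 1 at upd3. The w region of higher count had 888 in wing and 3025 in leg (log2 -1.77, SE 0.32, adjusted p = 2.59e-06, authors' deposited table), the highest implied count of any called region. With these 4 left out, likewise decided only after seeing the data, the leg count was 268.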

How the data were processed

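Per the submitters' processing notes, the tools were MACS2 2.1.2, DESeq2 (no version named), R 3.5.2, bedtools 2.26, Picard 2.2.4, SAMtools 1.9 and Bowtie2 2.3.4.1, on build dm6, with settings not given in the sources used here. The authors deposited comparison tables with, for each region, a mean normalized count (a scaled signal), a log2 fold change and SE, a test statistic (a score) and p-values before and after adjustment, and merged peak lists with a score, a fold enrichment (a ratio to local background), a −log10 q-value and a summit offset. No count per library was used, so nothing was refitted, the depth is unknown and the SEs (median 0.22) give the precision. The 681 regions with no adjusted p had a mean count of at most 32.1. Wilson intervals cover counting error only.

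Calls took an adjusted p under 0.05 and a log2 fold of at least 1. Group levels were solved from the mean count and the folds of the 4 authors' deposited tables, which add up within 0.01 except at 6 regions with a fold of 0. Coordinates are dm6, as the files give them. Each region went to the gene with the nearest end among 13946 in a RefSeq gene table of that assembly, which is an assignment by distance alone. Of 186 symbols in 18 gene lists, 184 matched. The members and lists were chosen with earlier results of these data known. Named genes are list genes with a call, genes of the 12 largest folds per direction at or above the median count, genes with 4 or more calls, with calls in both directions or in clusters of 4 or more, and list genes with 5 or more regions and none called. The markers dac, C15 and Doc3, and abd-A, Wnt4 and kirre, fall outside it, and the last 3 were chosen after their values were seen. Loci of the plot of folds were chosen after seeing the clusters. Python 3.11.15, pandas 2.3.3, scipy 1.17.1 and matplotlib 3.10.9 were used, and the calling code was checked on simulated data. The planted folds were larger than the median called fold, and the noise was set by the deposited SEs. That check covers the code and not the reliability of the calls. The alternatives were other thresholds, centrings, distances and peak rules.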

Additional observations from a re-analysis of the deposited data

Results flagged for a closer look

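Peaks on the Y chromosome stood in both merged lists, although all libraries are labelled female: 34 in the WT wing list and 39 in the WT leg list. The table has 14 regions on Y, with a median log2 fold of -0.17 in the authors' deposited table and none called between the discs.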

How the results depend on the processing

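Each setting reuses the authors' deposited folds, so the settings do not test the direction of a region's fold. The number of calls depended on the settings, and so did which disc had more. The balance of directions in the wing pouch and hinge list changed with the assignment of regions. With no fold threshold, 622 regions were higher in wing and 647 higher in leg, and at a log2 fold of at least 1.5 these were 41 and 90. Centring on the median of all regions (-0.04) gave 279 and 255, and centring on regions near gene ends 282 and 251. Both centrings thus had more calls for wing, where the main setting had more for leg (251 and 272). An adjusted p under 0.01, adjustment over every region, leaving out the lower quartile of counts and asking for a peak of the higher group gave 196 to 251 wing and 210 to 274 leg regions. Called regions of the lists numbered 119 in sum, 70 within 10 kb of a gene end and 262 with no fold threshold; of the 36 counts by list and direction, 10 and 23 moved by over 1.5 times, and 6 when a containing gene came first. A few further settings, chosen after seeing the data, gave 251 wing and 250 to 272 leg regions. The 24 clusters became 68 with no fold threshold, 18 when joined within 10 kb and 31 within 50 kb. The share of called regions near a gene end (5.35%) was 2.29% within 200 bp and 10.9% within 1000 bp. The share with a peak in both lists (54.9%) was 22.6% with peaks of a −log10 q of at least 10. Overlap of the wing list by leg peaks (74.1%) was 63.1% at reciprocal 50% overlap and 82.2% at a −log10 q of at least 10, and that of the leg list (81.8%) was 69.0% and 81.7%. No paired analysis was possible because the tables hold no value per library, and for the same reason no library could be left out. A planned count of motifs was not run, since no genome sequence was used.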
